A study of Rattus norvegicus with 3 samples.

Results

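The genes described here encode the proteins of the cytosolic ribosome. They were taken from the deposited array table by name: every probe set annotated with a single symbol that starts with Rpl or Rps and a digit, or is Rplp0, Rplp1, Rplp2 or Rpsa, with the S6 kinases left out. The rule found 57 probe sets of 50 genes, out of 14217 genes with a probe set of 1 symbol. RNA labelled as rat adrenal medulla had been measured on 1-colour oligonucleotide arrays, with 2 arrays (a and b) after 1 day in the cold and 1 array after 7 days. All rats had thus been in the cold, and no array of rats kept out of it was analysed here, so the comparison is of a longer with a shorter stay. Below, a and b always mean the 1-day arrays. Each gene was represented by its probe set with the highest mean log2 level over array b and the array of 7 days. The labels used here give no strain, sex, age or genotype, and do not say whether arrays a and b came from separate animals or how many animals gave RNA to an array. Any spread between a and b may therefore be technical, and having 3 arrays limits how precise any value can be.

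The cytosolic ribosome is built from a small subunit, which holds and decodes the mRNA, and a large subunit, which joins amino acids. Each is made of ribosomal RNA and one copy of nearly every ribosomal protein, so cells make these proteins in matched amounts. Their mRNAs are among the most abundant of a cell. In mammals they begin with a C and a run of pyrimidines, the terminal oligopyrimidine (TOP) tract, through which the kinase complex mTORC1 and the RNA-binding protein Larp1 set how strongly they are translated. An array measures the level of these mRNAs, and neither their translation nor the number of ribosomes.

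The TOP tract was looked for in the RefSeq promoter table (build GRCr8), which held 43 of the 50 genes. The motif was C at the annotated transcript start followed by 4 bases that are each C or T, read on the transcript's strand only. It stood at the start of 12 of the 43 genes (27.9%), against 2.63% of all 33469 promoters in the table. A run of 5 bases that are each C or T, lying between 5 bases before and 10 bases after the start, was found in 25 of the 43 (58.1%), against 24.4% of all. The 30 bases around the start are shown for some of the genes named below, to show the feature that the name rule did not use. The run of C and T from the start is in capitals. Rps6, whose annotated start lacks the motif in this window, is given beside 4 genes that have it. This choice favours genes with the motif, which 12 of the 43 have.
Rplp0 (chr12:46718376-46718405, minus strand): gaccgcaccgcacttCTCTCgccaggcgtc
Rpl19 (chr10:83519049-83519078, plus strand): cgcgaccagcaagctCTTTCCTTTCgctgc
Rpl37a (chr9:81748076-81748105, plus strand): gcatgcccgttgcgtCTCTTCCTCTTCggg
Rpl34 (chr2:221962269-221962298, minus strand): ccccttccttttcctCTTCCggggacggtg
Rps6 (chr5:106420526-106420555, minus strand): gacgcctcctaggcggtcggctgtgtcaag

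A match at an annotated start is a description of the reference sequence, and annotated starts can lie some bases away from those a tissue uses. Among the genes shown, Rplp0 and Rps6 mark the lowest and the highest 7-day difference from array b in the bright group described below.

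Intensities are the values the authors deposited, and differences are of log2(intensity + 16). The intensities were read as already scaled, which no source used here states. Over all gene probe sets, the median intensities of a, b and the 7-day array were 1583, 593 and 675, so the arrays did not share a median. Of the 50 genes, 44 had a mean log2 value over the 3 arrays at or above the median of all gene probe sets (an intensity of 759) and entered the comparisons. The values fell into separate groups: 38 genes had a mean log2 value above 15, an intensity of 32752, and the other 12 lay far lower. That limit was set after the values were seen. The 38 bright genes hold 26 of the large and 12 of the small subunit. The 12 dim ones comprise Rpl28, Rpl30 and Rpl39 of the large subunit, Rps13 of the small subunit, the paralogues Rpl3l, Rpl7l1, Rpl26l1, Rpl39l1, Rps27l and Rps4y2, and the pseudogenes Rpl37-ps2 and Rps4x-ps1. Rplp1, Rplp2, Rps2, Rps14, Rps18 and Rps19, among others, are not among the 50 and were not analysed here. A further 36 probe sets carry several symbols with at least one of a ribosomal protein. They are left unnamed and summarised separately. Ribosomal protein genes have many near-identical processed copies, so a probe set can also read transcripts of a copy.

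**Figure D1:**
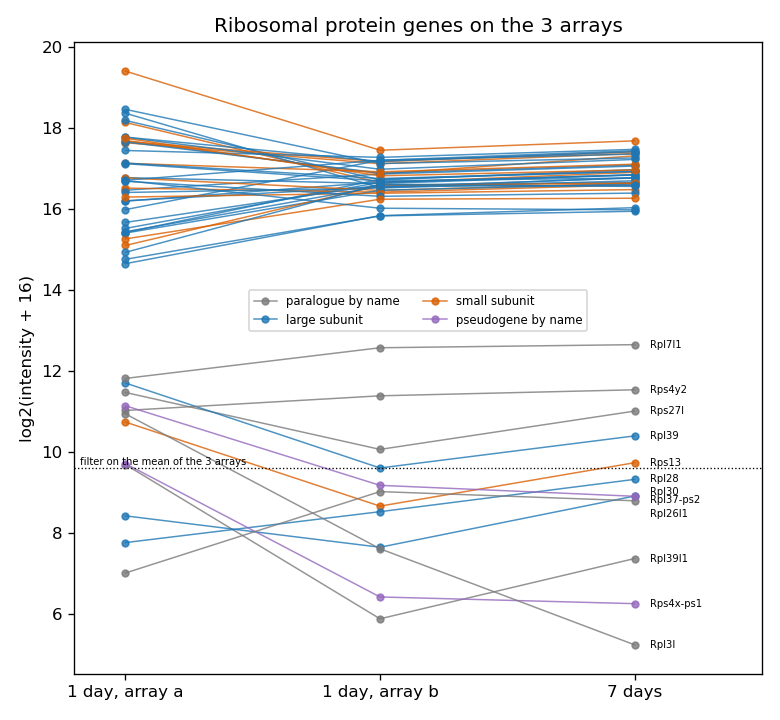
The level of each of the 50 genes, as log2(intensity + 16), on each of the 3 arrays, with 1 line per gene coloured by subunit and the filter as a dotted line. The 38 bright genes lie close together on array b and at 7 days and are spread wider on array a. The 12 dim genes are named.

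The arrays differed in their control probe sets, which touches every value that uses array a. For beta-actin, the 3′ control was brighter than the 5′ one by a ratio of 231 on array a, 6.11 on array b and 8.87 at 7 days. For GAPDH the ratios were 5.02, 1.79 and 1.87 in that order. The control probe set for 5S ribosomal RNA, itself a part of the large subunit, read 60613, 3177 and 6242 in that order, and the hybridisation spike-ins had geometric means of 187534, 16829 and 21788. Ribosomal protein genes of the rule supplied 4.43%, 3.54% and 3.85% of the summed intensity of all gene probe sets. Defining markers of chromaffin cells were bright (Th at 79575, 193597 and 224786), and so were those of the adrenal cortex (Star at 602316, 208112 and 277067), so the RNA also held transcripts of the cortex. In whole tissue, fewer cells of a type and less RNA per cell cannot be told apart. Below, values against array b alone are those without array a.

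In limma's test of 7 days against 1 day over all 3 arrays, 0 of the 44 genes changed (adjusted p under 0.05). Over all 15521 probe sets tested, 0% passed. Of the 44, 0 had an unadjusted p under 0.05, while 70 of the 15521 probe sets did. The lowest p among the 44 was 0.434, for Rpl7, and the lowest adjusted p 1.00. For the bright genes the differences between the 7-day array and the mean of the 1-day arrays ran from -0.74 (Rps29) to 0.86 (Rpl7), each with an SE of 1.05 to 1.19. The SEs are those that limma fitted at each brightness from the 1-day pair, with 1 residual degree of freedom, and they exceed every one of these differences. Changes of the sizes seen here were thus not detectable in this design.

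The 1-day pair itself differed widely. Among the 38 bright genes the median size of the difference between arrays a and b was 0.78, against 0.18 between the 7-day array and array b. Array a was at least 2-fold higher than array b for 9 of the 44 genes and at least 2-fold lower for another 9, or 20.5% each. Over all 9252 genes kept, 17.1% were that much higher and 22.9% that much lower, so these shares are near the background. Of the 9 higher, 5 were bright: Rps29, a small zinc-binding protein of the small subunit's head (689608 on a, 178242 on b and 209232 at 7 days), Rpl13a (335687, 93967 and 111789), Rps28, Rpl41 and Rpl37a. The last 3 read 1.49, 1.47 and 1.34 higher on a than on b. Rpl41 is the shortest ribosomal protein. In each of these 5, array a stood alone and the other 2 arrays lay together.

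The 9 genes low on array a were all bright and were led by Rplp0, the base of the stalk that recruits elongation factors, at 31090 on a, 99462 on b and 95977 at 7 days. Rps3, a protein at the entry of the mRNA channel, read 34969, 97718 and 101527. Rpl7 (43643, 108466 and 124522), Rpl7a (64548, 150169 and 177018), Rpl24, Rpl27, Rpl11, Rpl14 and Rpl34 were the others, with differences of -1.31 (Rpl7) to -1.05 (Rpl34). Of the 9, 8 encode large subunit proteins and 1 a small subunit protein, beside 26 and 12 of the bright genes. Of the 38 bright genes, 13.2% were at least 2-fold higher on array a than on array b and 23.7% at least 2-fold lower. Among 208 other probe sets in the same range of brightness, the shares were 13.5% and 33.2%. Readings on opposite sides of array b were thus not particular to ribosomal protein genes. The 3′ to 5′ control ratios were also apart on array a. The part of RNA quality in the split was not tested.

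**Figure D2:**
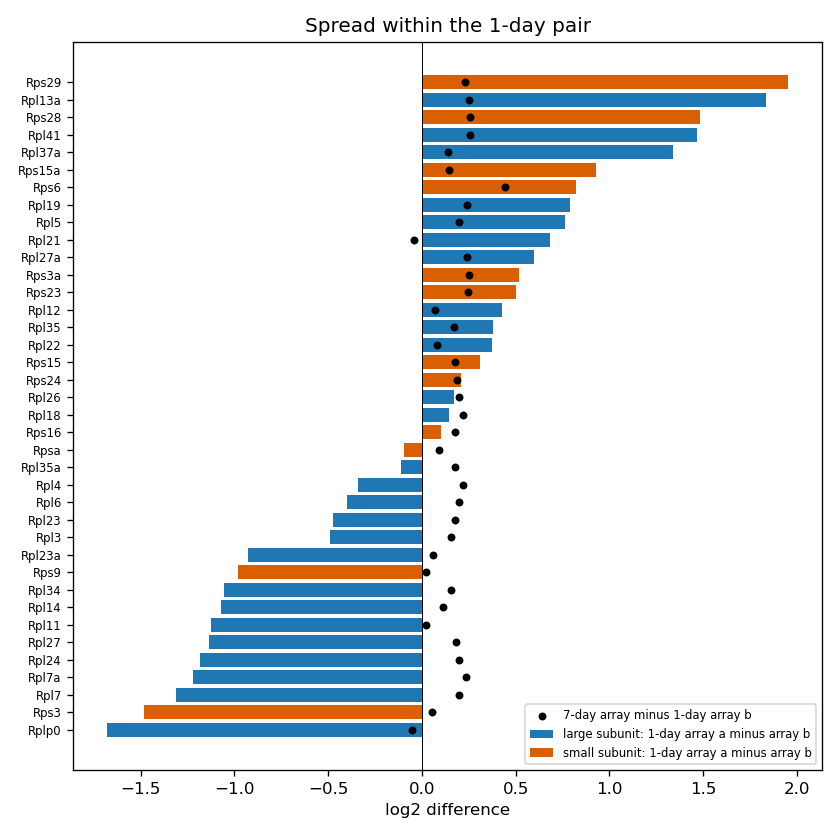
Bars give array a minus array b at 1 day, and dots the 7-day value minus array b, both as log2 differences, for the 38 bright genes coloured by subunit. The bars run from -1.68 (Rplp0) to 1.95 (Rps29), while the dots run from -0.05 to 0.44.

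Against both 1-day arrays, the 7-day array read above both for 21 of the 44 genes (47.7%), below both for 2 (4.55%) and between them for 21. Over all genes kept the shares were 25.5% above and 24.1% below. The 21 and 2 became 8 and 11 with quantile normalisation, 12 and 7 with the brightness trend removed by loess (span 0.5), and 16 and 1 once arrays were centred on their medians. None of the 44 was at least 1.2-fold above both arrays (5.27% of all genes) and 1 was at least 1.2-fold below both (7.97% of all genes). That gene was the pseudogene Rpl37-ps2, at 2244 and 564 at 1 day and 465 at 7 days. Rpl37-ps2 and Rps13 passed the filter only through array a: their mean log2 levels over array b and 7 days were 9.04 and 9.20, under the filter's 9.60. Rpl28 and Rpl30, both under the filter, had 7-day values furthest above both. Among the bright genes Rpl7a came first, at 0.24 above array b and 1.46 above array a. Rpl4, whose protein lines the exit tunnel for the growing chain, had a 7-day value 0.22 or more above both, at 75129 and 95271 against 110905. Rpl7 and Rpl6 (89996 and 118561 against 136007) followed. Rpl18 (111546 and 100818 against 117262), Rpl26 (177480 and 157806 against 180938) and Rps16 (93308 and 87031 against 98516) were also above both. In these 3 genes the 1-day arrays lay within 0.17 of each other on the log2 scale.

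With array a set aside, nearly all of the genes read slightly higher at 7 days than on array b as deposited, while under other scalings their direction was mixed. Of the 44, 41 were higher (93.2%, against 48.5% of all genes), with a median difference of 0.18, while the median of all genes kept was -0.01. This compares 2 arrays with no replicate, so it carries no test. The 38 bright genes had the same median, a fold of 1.13, with 36 higher and 2 lower. The spread was narrow: their SD was 0.094, and 30 of 38 lay within 0.1 of the median. The medians of the large and the small subunit were both 0.18, for 26 and 12 genes. The 31 bright probe sets with several symbols, which the name rule left out, had a median of 0.13, an SD of 0.092 and 30 of 31 higher.

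Other bright probe sets were also higher at 7 days than on array b, and the brightest by more. For mean log2 values of 16.5 to 17, the median difference was 0.18 for 20 ribosomal protein genes and 0.23 for 55 other probe sets, and 17 of the 20 lay below the others' median. From 17 to 18 it was 0.24 for 11 genes and 0.31 for 47 others, with 10 of the 11 below. From 16 to 16.5 it was 0.09 for 4 and 0.12 for 92, and from 15.5 to 16 it was 0.11 for 3 and 0.11 for 162. The ribosomal protein genes were thus no higher than other probe sets of like brightness in the classes above 16. The others from 17 to 18 include markers of the adrenal cortex and chromaffin cells, such as Star, Cyp11a1 and Chgb. Ribosomal proteins made up 37.5% of all probe sets from 16.5 to 17. With and without them in the span 0.5 loess fit, the median of the 44 genes was 0.03. Over the whole range that the bright genes span, the 208 other probe sets had an SD of 0.18, against 0.094 for the ribosomal protein genes. The others lay more in the lower classes, where their SD was larger. Within a class, the SDs of others and ribosomal protein genes were 0.156 and 0.084 from 16.5 to 17, and 0.131 and 0.080 from 17 to 18. The brightest gene probe set on an array read 231933 on array b and 287083 on the 7-day array, 1.24 times as high, and the spike-ins were 1.29 times as high. The median intensity of all gene probe sets was 593 on array b and 675 on the 7-day array. The part of array brightness in the difference was not tested.

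**Figure D3:**
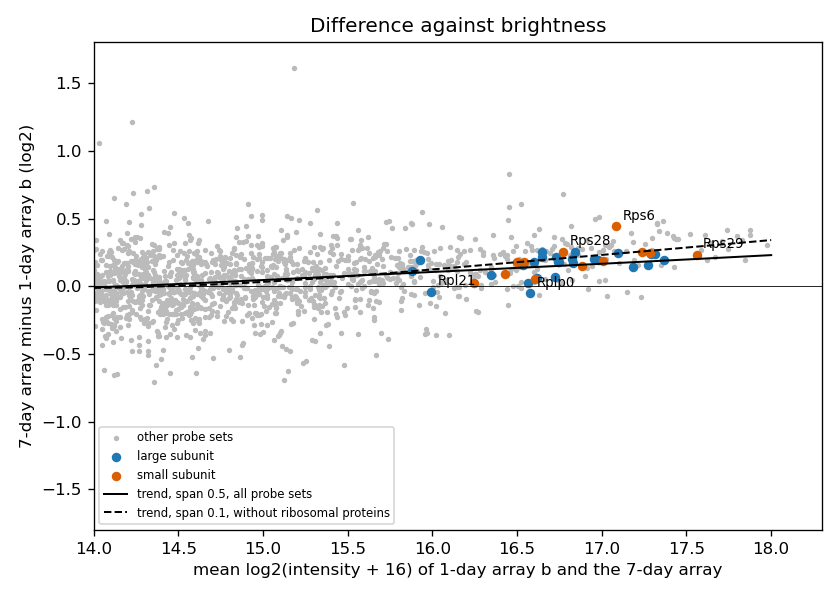
Each point is a probe set, with its mean log2(intensity + 16) over array b and the array of 7 days on the x axis and the 7-day value minus that of array b (log2) on the y axis. Ribosomal protein genes are blue (large subunit) and orange (small subunit), other probe sets grey, and the lines are loess trends. The coloured points lie around or slightly under the dashed trend that was fitted without them. The grey points include markers of the adrenal cortex and chromaffin cells.

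The direction of the family therefore turned on the scaling. The count of genes higher than array b was 41 of 44 as deposited, 31 with a loess trend of span 0.5 removed, 21 after median centring, 16 with quantile normalisation and 15 with a loess trend of span 0.1 fitted without ribosomal proteins. The medians were 0.18, 0.03, 0.00, -0.05 and -0.03. Centring brought the median of all genes kept from -0.01 to -0.19. On that scale 24.3% of all genes were higher, and 48.5% were as deposited. Of the 38 bright genes, 7 were higher and 2 lower under every scaling tried. The rest changed sign with the scaling.

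Rps6 and Rplp0 held the ends of the bright group under all 6 scalings. These are not 6 separate checks, since all compare the same 2 arrays. Median centring shifts every gene alike and so keeps the order as deposited. The 2 loess fits of span 0.5 gave nearly the same values. Rps6, a small subunit protein and the classical substrate of the S6 kinases downstream of mTORC1, read 119057 on array b and 161883 at 7 days, a difference of 0.44. It was 0.32 with quantile normalisation, 0.26 with median centring, 0.27 with the span 0.5 trend and 0.20 with the span 0.1 trend removed. The next highest gene stood at 0.26 as deposited and at 0.07 to 0.11 in the other scalings. On array a, however, Rps6 read 210366, above the 7-day array, so its 7-day value lay between the 1-day values and limma's difference was 0.03 ± 1.14 (SE). Rps6 has 1 probe set that carries its symbol alone. Rplp0 was lower by 0.05 as deposited (99462 and 95977) and stood at -0.31 to -0.19 in the other scalings. Against array a it was 1.63 higher. Rpl21, the other gene lower under all scalings, read 66133 on array b and 64313 on the 7-day array, with 106149 on array a. The remaining genes that were higher under all scalings were Rps28, Rpl41, Rpl13a, Rpl19, Rpl4 and Rpl24. Several did so narrowly: Rpl19 stood at 0.00 with the span 0.1 trend removed and Rpl4 at 0.01 with quantile normalisation.

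**Figure D4:**
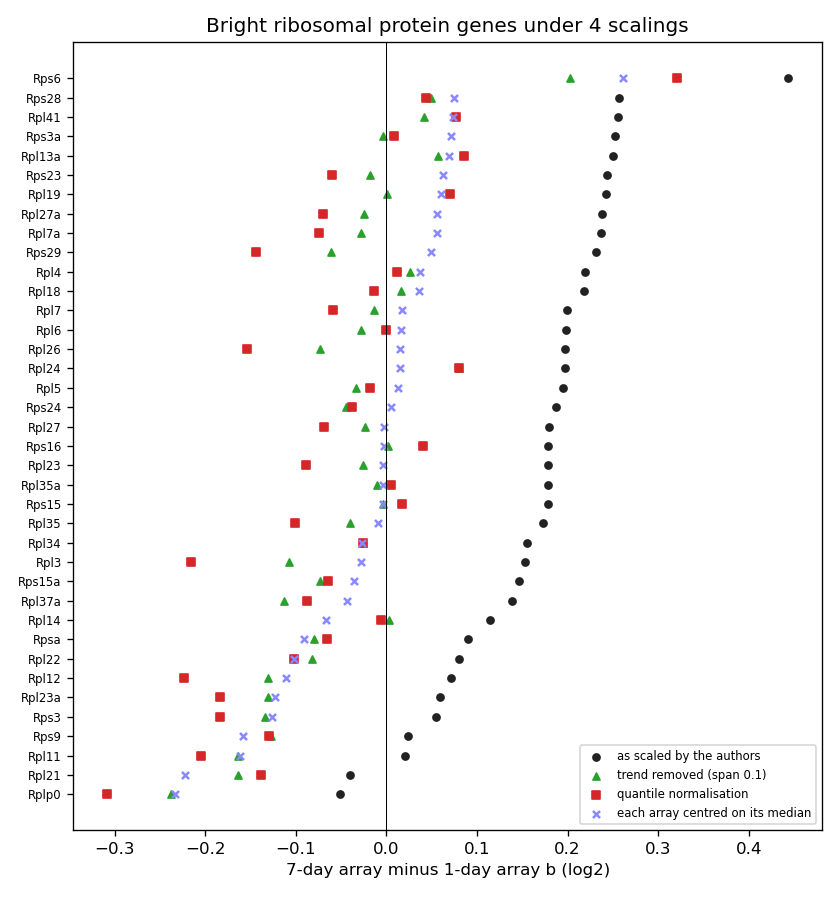
The 7-day value minus that of array b (log2) for the 38 bright genes, ordered by the difference as deposited (black), with the same difference after removal of a loess trend of span 0.1 (green), quantile normalisation (red) and median centring (blue). Rps6 is highest and Rplp0 lowest in each, and most other genes cross 0 between scalings. Median centring keeps the order as deposited by construction.

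The 7-day differences from array b are given here by place in the large subunit. In the stalk and its base, Rplp0 stood at -0.05 and Rpl12 at 0.07 (105520 and 110831). Rpl5 and Rpl11 enter the large subunit together with 5S rRNA, and outside the ribosome both bind the p53 regulator Mdm2. They stood at 0.20 (120796 and 138298) and 0.02 (96238 and 97602). Rpl23 and Rpl26, which also have links to p53, stood at 0.18 (103447 and 117071) and 0.20 (157806 and 180938). Around the exit of the peptide tunnel, Rpl23a, a docking site for factors that meet the new chain, stood at 0.06 and Rpl35 at 0.17. Rpl19, Rpl24 and Rpl41, which lie at bridges between the subunits, stood at 0.24, 0.20 and 0.26. Rpl3, near the catalytic centre, stood at 0.15 (150153 and 166989), and Rpl22, which also binds other RNAs, at 0.08 (81059 and 85659).

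In the small subunit, Rps3, at the mRNA entry, stood at 0.06, and Rps9, of the subunit's body, at 0.02 (77150 and 78439). Rpsa, which is also known as a laminin receptor precursor, stood at 0.09 (85414 and 90950). Rps23, at the decoding centre, stood at 0.24 and Rps3a at 0.25. Apart from Rps6, Rps28 at 0.26 was highest among the 12. These values are as deposited. Among the 12, Rps6 and Rps28 were the ones that stayed above 0 under every scaling tried.

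Past 1.2-fold, 4 of the 44 genes were higher than array b (9.09%, against 16.8% of all genes) and 1 was lower (2.27%, against 17.4%). Both shares lie below those of all genes. Beside Rps6, the 4 are the dim Rps13, Rps27l and Rpl39. Rps13 read 390 on array b and 838 at 7 days, but 1694 on array a. It was the 1 gene past 2-fold in the higher direction (0.843% of all genes), and 0 were past it in the lower direction (0.443% of all genes). Rps27l, a paralogue of Rps27 and a known target of p53, read 2820, 1055 and 2047 on the 3 arrays, and Rpl39, at the tunnel exit, 3319, 764 and 1334. In all 3 of these genes the 7-day value lay between the 1-day values. The pseudogene Rpl37-ps2 was the 1 lower.

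Rpl7l1, a nucleolar relative of Rpl7, read 3589, 6074 and 6405, and its other probe set 3666, 5224 and 5739. Rps4y2, a relative of Rps4x, read 2068, 2662 and 2953. Both stood above both 1-day arrays as deposited. Against array b, Rpl7l1 stood at 0.08 as deposited, at 0.12 to 0.13 with quantile normalisation and the loess fits, and at -0.11 with median centring. Rps4y2 stood at 0.15 as deposited, at 0.16 to 0.20 with quantile normalisation and the loess fits, and at -0.03 with median centring. The 6 genes under the filter were dim on array b. Rpl3l, a paralogue of Rpl3 known from heart and skeletal muscle, read 1952, 180 and 22, and Rpl39l1 read 811, 43 and 150. Rpl26l1 read 114, 505 and 429, and the pseudogene Rps4x-ps1 825, 70 and 61. Rpl28 (202, 354 and 626) and Rpl30 (328, 185 and 467) were read here by dim probe sets. No detection calls were used, so whether such values lie above background is unknown.

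For 6 genes more than 1 probe set carried the single symbol, and as deposited the probe sets of all 6 had the same sign against array b. With quantile normalisation the signs differed in 4 of the 6 (Rpl3, Rpl7, Rps24 and Rpsa), and with median centring in 2 (Rpl3 and Rpl14). As deposited, the sizes differed most for Rpl3, at 0.15 on the chosen probe set and 2.05 on a dim one that also detects related sequences (9429, 1159 and 4863). The 3 probe sets of Rpsa gave 0.09, 0.13 and 0.10 against array b. Those at 0.13 and 0.10 are of types that can also detect related sequences. On array a the 3 parted, at 80051, 253950 and 28019 against 85414, 74237 and 15573 on array b. Thus 1 was at least 2-fold higher there and 1 was slightly lower. Rpl7 likewise stood at 0.20 and 0.21 against array b on its probe sets, and array a was 1.31 lower than array b on the first and 0.62 higher on the other.

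Other genes of ribosome production did not pass the test either. In limma 0 of 38 ribosome biogenesis genes, 0 of 13 of RNA polymerase I, 0 of 14 TOP mRNAs outside the ribosome and 0 of 17 genes of mTORC1 and TOP control had an adjusted p under 0.05. At an unadjusted p under 0.05 the counts were 1, 0, 0 and 0. The 1 gene was Nmd3, at 556 on a, 6130 on b and 6556 at 7 days, so array a stood alone. Its 7-day value was 0.10 above array b. Of the biogenesis genes 22 were higher and 16 lower than array b, with a median of 0.02. Sdad1 (1860 and 2527) and Rrp12 were highest, and Wdr75 (3124 and 2321) and Dkc1, the pseudouridine synthase of ribosomal RNA (6494 and 5123), were lowest. RNA polymerase I genes had 4 higher and 9 lower and a median of -0.11, from Polr1f (6043 and 5079) and Taf1d up to Polr1e and Taf1b (589 and 1096). This median was -0.07 with quantile normalisation and -0.08 with both loess fits of span 0.5. With median centring, which puts the median of all genes kept at -0.19, it was -0.29.

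TOP mRNAs outside the ribosome had 10 of 14 higher and a median of 0.12. Eef1a1, which delivers aminoacyl-tRNA to the ribosome, read 149266 on array b and 195510 at 7 days, and Eif3k 22663 and 26874. Vim (35003 and 26116), an intermediate filament protein, and Nap1l1 were lowest. Of the mTORC1 list 9 were higher and 8 lower. Akt1s1 (3446 and 4775) and Mlst8, both of mTORC1, were highest, and Ssb and Tsc1 (4037 and 2986) were lowest. The medians of these 2 lists were 0.02 and -0.01 with quantile normalisation. Of 3 ribosome components that the name rule leaves out, 1 was measured and kept: Rack1, a scaffold on the small subunit, read 71000, 75644 and 79649. Mitochondrial ribosomal proteins, the family nearest in name, had 51 of 73 higher than array b as deposited and a median of 0.09. Over all genes kept, 48.5% were higher. These values are as deposited only, and the family was not summarised under the other scalings. Their SD was 0.20, against 0.23 for the 44 cytosolic genes kept and 0.094 for the 38 bright ones. The mitochondrial genes are dimmer than those 38, so these SDs are not at like brightness. The 7-day array read above both 1-day arrays for 41 of the 73 and below both for 9. Over all genes kept these shares were 25.5% and 24.1%.

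Markers of cell types are given for the same arrays, with no test. As deposited, 7 of 7 kept markers of the adrenal cortex were higher at 7 days than on array b (median 0.37), as were 5 of 7 of chromaffin cells (0.22), 6 of 6 of endothelium (0.15), 2 of 3 of Schwann and sustentacular cells (0.15) and 1 of 7 of macrophages and lymphocytes (-0.12), beside 48.5% of all genes. The cortex and chromaffin markers are as bright as the brightest ribosomal protein genes, with median log2 levels of 17.30 and 17.44. Of other probe sets from 17 to 18, 93.6% were higher. That class includes markers themselves, among them Chgb, Star and Cyp11a1, so it is no separate background for them. With a loess trend of span 0.1 removed, the medians were 0.10 for cortex (7 of 7 higher), -0.09 for chromaffin cells, 0.18 for endothelium, -0.01 for Schwann and sustentacular cells and -0.17 for macrophages and lymphocytes. With median centring they were 0.19, 0.03, -0.03, -0.04 and -0.30, and with quantile normalisation 0.18, -0.12, 0.16, 0.01 and -0.16. The summed intensity of the cortex markers was 1564505 on a, 864744 on b and 1133933 at 7 days, and that of the macrophage and lymphocyte markers 60870, 57832 and 50721. The sums of the chromaffin markers were 2352431, 969728 and 1143111, those of endothelium 48830, 40248 and 44866, and those of Schwann and sustentacular cells 9416, 5365 and 6241. Single markers of a list parted. Sox10, a marker of Schwann cells, read 1071, 691 and 766, and S100b 2683, 3410 and 4652. Gfap, of the same list, read 5662, 1263 and 823. The T cell marker Cd3e, under the filter, read 867, 275 and 143. In that list, Ptprc (1686, 440 and 996) and Cd79b, under the filter (218, 64 and 438), were higher at 7 days than on array b. None of the markers measured was at 0. The part of cell make-up in the ribosomal protein values was not tested.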

How the data were processed

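The authors deposited a table of linear intensities, 1 for each probe set on each array, already summarised and, as read from the values, scaled. How this was done, and with which software, is not given in the sources used here. Values were turned into log2(intensity + 16), since the deposited values are not on a log2 scale. The 57 control probe sets were left out, and of the other 31042, the 15521 whose mean log2 level reached the median were kept. GEO's platform annotation supplied the names: 20826 probe sets had 1 symbol, 436 had several and 9780 none. Of the 50 genes, 48 matched the RefSeq table of GRCr8 by Entrez identifier, and Rps9 and Rpl37a kept their annotated symbol. limma (lmFit, eBayes with trend, two-sided, Benjamini-Hochberg at 0.05) was fitted on all kept probe sets. Its prior degrees of freedom were infinite, and a lone array at 7 days is taken to be as variable as a and b. With 1 array at 7 days, other counts are descriptions of size, past 1.2-fold or 2-fold. No column was left unused.

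The members and lists were chosen with earlier results of these data known. Genes named were members passing limma, the 6 extreme members in each direction at 7 days against b and against both 1-day arrays, the 3 highest and 3 lowest on array a against array b, members whose probe sets disagreed in sign, fixed members by role, and the 2 highest and 2 lowest of each list of other genes. Other members were named after their values were seen. Alternatives were pseudocounts of 1 and 64, quantile normalisation, median centring, removal of a loess trend (span 0.5), other filters, other probe set choices, limma without trend or with robust = TRUE, and leaving out each 1-day array. Loess fits without ribosomal proteins (spans 0.5 and 0.1), the bright genes alone, and other scalings of the cell markers and of the probe sets of 1 gene were added after seeing the data. The fit was tested on simulated data. R 4.3.3, limma 3.58.1, Python 3.11.15 and matplotlib 3.10.9 were used.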

Additional observations from a re-analysis of the deposited data

How the results depend on the processing

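limma called 0 of the genes under each alternative run: pseudocounts, quantile normalisation, median centring, the loess fits, filters, probe set choices, and no trend or robust = TRUE. The count above both 1-day arrays (21) became 8 with quantile normalisation, 12 with a loess trend of span 0.5 removed (12 also with that trend fitted without ribosomal proteins) and 9 with span 0.1. Counting against 1 array only, it was 22 without 1-day array b and 41 without 1-day array a. The median against 1-day array b (0.18) became -0.05 (-0.0484) with quantile normalisation, 0.00 (-0.0027) with median centring, 0.03 with both loess fits of span 0.5 (0.0327 and 0.0346) and -0.03 (-0.025) with span 0.1, and the count higher (41) became 16, 21, 31, 31 and 15. The median of 1-day array a against array b (0.19) became -0.10, -1.204, 0.25, 0.29 and -0.17 under the same settings, and 0.34 with probe sets of a gene averaged. The median difference between 7 days and 1 day (0.12) was 0.18 without array a, 0.00 (0.0032) without array b, 0.07 with quantile normalisation, 0.635 with median centring (0.561 for all genes kept), -0.0604 with a loess trend of span 0.5 removed, -0.079 with that trend fitted without ribosomal proteins and 0.09 with span 0.1. Other values, of single genes and lists, stayed within the spread of the 1-day pair in 280 cases and moved further in 31. That spread was wide, with a median size of 0.78 among the bright genes, so staying within it does not mean that a sign held. Of the 38 bright genes, only 7 were higher and 2 lower under every scaling. With probe sets averaged, Rpl3 stood at 1.10 against array b. The causes were not tested. No paired analysis was possible because the groups share 1 replicate letter. With 1 residual degree of freedom and a wide 1-day pair, differences of the size seen cannot be resolved by these arrays.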
